A study of Mus musculus with 15 samples.

Results

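The genes described here are 8 of a list of 9 that encode complement components, a complement inhibitor and ceruloplasmin. The list was C1ra, C1s1, C2, C4b, Cfb, Cfd, Serping1, Masp1 and Cp. For each gene the probe set (a group of array probes read as one value) naming only that gene was used, and each of the 8 had 1 such probe set. Cfd, which encodes the protease factor D, had none among the probe sets listed with a gene and was not analysed here. The 8 genes were tested among 19938 genes. They were measured in cCFU-F from mouse heart, cultured stromal cells (cardiac colony-forming fibroblasts) that grow into colonies. The cells came from C57BL/6 mice aged 12 weeks and labelled male, and were sorted as SCA1+PDGFRα+CD31-. There were 15 Affymetrix arrays, 1 per sample, with 3 in each of 5 groups. The groups were large colonies without treatment at passage 5 and at passage 15, small colonies without treatment at passage 5, and small colonies given PDGF-AB (50 ng/ml) at passage 5 and at passage 15. PDGF-AB is a platelet-derived growth factor dimer that signals through PDGF receptors. Untreated small colonies at passage 15 were not among the groups, so at passage 15 colony size and PDGF-AB cannot be told apart.

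Complement is a cascade of plasma proteins that tags and lyses cells. In the classical pathway the protease C1r of the C1 complex activates C1s, which cleaves C4 and then C2. Fragments of C4 and C2 together form a C3 convertase. In the lectin pathway proteases of the MASP family cleave C4 and C2. In the alternative pathway factor B, cut by factor D, takes the place of C2 in the convertase. C1 inhibitor, the product of Serping1, is a serpin that inactivates C1r, C1s and some MASP proteases. Ceruloplasmin is a copper-carrying ferroxidase that oxidises iron as it leaves cells, and like several complement components it is an acute phase protein, induced in liver by inflammatory cytokines. Fibroblasts are a known source of complement components outside the liver.

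The genes C1rl, C1ra, C1s1, C1rb and C1s2 are 5 consecutive protein-coding genes, in that order, in the RefSeq gene table of assembly GRCm38.p6. Cfb and C2 are direct neighbours, and C4b lies in the same run of 8 protein-coding genes. The RefSeq promoter table (GRCm38.p6) held 4 of the 9 listed genes, C1ra, C1s1, Cp and Cfd, and Cfd was not analysed. C1ra and C1s1 are neighbours whose levels both fell with passage in treated small colonies. Cp changed most of the 8 genes in that comparison. The 250 bases before an annotated start of C1ra, C1s1 and Cp are shown. They were searched on both strands for TTGCNNAA (a C/EBP motif), TTCNNNGAA (a STAT motif) and an interferon-stimulated response element (2 copies of GAAA with any 2 bases between them). The C1s1 window is on the minus strand and the others are on the plus strand, all are written 5′ to 3′, and capitals mark matches to TTGCNNAA.
C1ra, chr6:124512371-124512620, plus strand: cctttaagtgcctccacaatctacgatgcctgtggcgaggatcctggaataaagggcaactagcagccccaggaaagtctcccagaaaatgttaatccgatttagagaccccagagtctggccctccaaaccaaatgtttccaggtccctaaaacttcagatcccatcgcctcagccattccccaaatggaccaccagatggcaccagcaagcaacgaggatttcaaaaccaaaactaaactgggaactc
C1s1, chr6:124542360-124542609, minus strand: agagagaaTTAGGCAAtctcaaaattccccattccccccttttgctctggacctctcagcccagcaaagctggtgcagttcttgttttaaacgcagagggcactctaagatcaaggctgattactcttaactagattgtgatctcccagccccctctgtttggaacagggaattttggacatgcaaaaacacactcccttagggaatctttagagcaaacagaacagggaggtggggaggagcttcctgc
Cp, chr3:19956999-19957248, plus strand: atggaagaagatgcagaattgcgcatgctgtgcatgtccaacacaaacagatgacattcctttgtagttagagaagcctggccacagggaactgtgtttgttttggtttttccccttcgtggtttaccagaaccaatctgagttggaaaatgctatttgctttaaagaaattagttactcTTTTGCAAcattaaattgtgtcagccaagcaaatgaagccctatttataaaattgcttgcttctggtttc
The match in C1s1 began 242 bases before the start and that in Cp 70 bases before it. For C1s1 and Cp the start shown is the one whose window held a match. The table gives C1s1 and Cp another start each, and those windows held no match to any of the 3 motifs, nor did the window of C1ra. Of all 32851 promoter windows of this length 9.56% held TTGCNNAA, 7.02% TTCNNNGAA and 2.98% the interferon-stimulated element. A match here describes letters, not a bound site.

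Array medians lay between 5.59 and 5.72 in log2 intensity, and the lower quartiles of the probe sets lay between 4.06 and 4.23. Xist stood between 8.93 and 10.88 and 6 Y-linked genes between 1.86 and 3.42 on all 15 arrays, against the label male. Of 7 stromal genes, Vim and Pdgfrb were high in every group (means 12.67 to 12.78 and 11.07 to 11.83). Thy1, another of them, had means of 10.33 and 10.63 in large colonies but 5.11 to 5.49 in the small groups, and Pdgfra, the gene of a sort marker, had 8.84 in large colonies at passage 15 and 6.28 to 6.66 in the other groups. By contrast the endothelial gene Pecam1, which encodes CD31, lay between 4.29 and 4.59 and the leukocyte gene Ptprc between 3.86 and 4.12. Whether the 3 arrays of a group stand for separate cultures or mice is not in the labels. The p-values therefore cover the spread from array to array, part or all of which may be technical. In RNA from whole cultures, fewer cells that express a gene and less RNA per cell cannot be told apart.

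**Figure D1:**
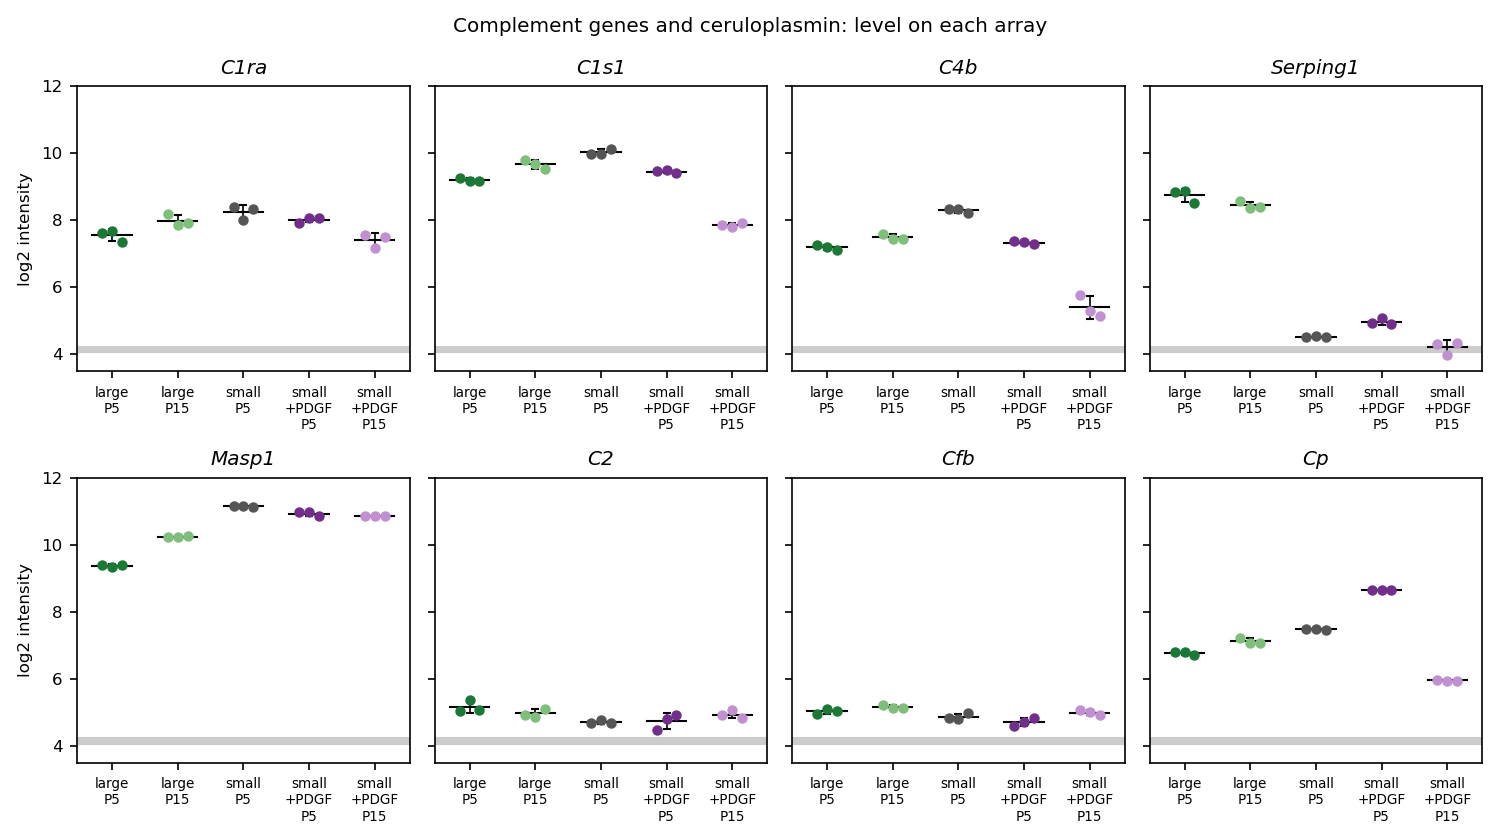
Level of each gene on each of the 15 arrays, in log2 intensity (vertical axis), by group (horizontal axis, P for passage). Points are arrays, horizontal lines are group means, error bars are the SD of 3 arrays, and the grey band covers the lower quartile of each array. Serping1 is high only in the 2 large groups, C1s1 and C4b are lowest in treated small colonies at passage 15, and Cp is highest in treated small colonies at passage 5.

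The levels of each gene in the 5 groups are given first. C1s1, the protease that cleaves C4 and C2, was highest in untreated small colonies, with 9.98, 9.97 and 10.13 on the 3 arrays. Treated small colonies at passage 5 gave 9.45, 9.48 and 9.41 for C1s1, and at passage 15 they gave 7.85, 7.79 and 7.90. In large colonies C1s1 stood at 9.27, 9.16 and 9.18 at passage 5 and at 9.79, 9.67 and 9.53 at passage 15. No neighbours in the order of the C1s1 levels overlapped, and treated small colonies at passage 15 lay far below all other groups.

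C4b, which encodes complement C4, followed the same order of groups. Its arrays read 8.34, 8.33 and 8.21 in untreated small colonies, then 7.59, 7.44 and 7.44 in large colonies at passage 15. Treated small colonies at passage 5 read 7.37, 7.34 and 7.29 for C4b, and large colonies at passage 5 read 7.26, 7.20 and 7.12. The lowest C4b values, 5.78, 5.29 and 5.14, were those of treated small colonies at passage 15. They lay below the median of 6.00 over all genes and arrays, so differences of C4b against this group may depend on background. The ranges of neighbouring groups did not overlap for C4b either, although the middle 3 groups lay close together.

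C1ra, which encodes the protease that activates C1s, varied less between groups. Its means were 8.25 ± 0.21 in untreated small colonies, 8.01 ± 0.078 in treated small colonies at passage 5 and 7.98 ± 0.17 in large colonies at passage 15 (SD, n = 3), and these ranges overlapped from each to the next. Below them lay large colonies at passage 5 (7.55 ± 0.18) and treated small colonies at passage 15 (7.41 ± 0.21), which overlapped with each other.

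Masp1 encodes MASP-1, a protease of the lectin pathway, and the splice form MASP-3, and these forms were not told apart here. The gene was higher in all 9 small-colony arrays than in all 6 large-colony arrays. Untreated small colonies stood at 11.15, 11.16 and 11.11, treated ones at 10.96, 10.96 and 10.86 at passage 5 and at 10.86, 10.87 and 10.86 at passage 15. Large colonies stood at 9.40, 9.33 and 9.39 at passage 5 and at 10.24, 10.22 and 10.26 at passage 15. The treated groups overlapped with each other and all other neighbours in the order were apart.

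Serping1, the gene of C1 inhibitor, was higher in all 6 large-colony arrays than in all 9 small-colony arrays. Large colonies gave 8.83, 8.87 and 8.52 at passage 5 and 8.57, 8.36 and 8.39 at passage 15, with overlapping ranges. Untreated small colonies gave 4.52, 4.54 and 4.52. Treated small colonies gave 4.95, 5.08 and 4.90 at passage 5 and 4.32, 3.98 and 4.35 at passage 15. All 9 small-colony arrays thus lay close to the lower quartiles of the arrays, where a level depends on background. The means of Serping1 spanned 4.52, and 99.7% of the genes tested had a span no larger.

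Cp, the gene of ceruloplasmin, read 8.64, 8.66 and 8.65 in treated small colonies at passage 5. It read 7.50, 7.50 and 7.46 in untreated small colonies. Large colonies read 6.80, 6.80 and 6.70 at passage 5 and 7.22, 7.08 and 7.07 at passage 15. The lowest Cp values were 5.97, 5.94 and 5.94, in treated small colonies at passage 15. Treated small colonies thus held both ends of the order, and no neighbouring ranges overlapped.

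C2, the partner of C4 in the C3 convertase, and Cfb, which encodes factor B, were dim throughout. C2 lay between 4.47 and 5.37 on the 15 arrays and Cfb between 4.60 and 5.21, both below the median of 6.00 over all genes and arrays. The spans of their group means were 0.45 and 0.44, and every neighbouring pair of groups overlapped for C2. For Cfb only large colonies at passage 15 stood apart from the group next below.

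The comparison of untreated large with untreated small colonies at passage 5 asked what sets the colony types apart. The C1 inhibitor gene was far higher in large colonies, and the protease genes C1ra, C1s1 and Masp1 were lower. Serping1 was higher by 4.21 (SE 0.10, adjusted p = 6.3e-15 by limma), an intensity ratio of 18.5 that rests on a background-level value in small colonies. Masp1 was 3.42-fold lower (adjusted p = 4.6e-14), C1s1 1.77-fold lower (adjusted p = 6.7e-08) and C1ra 1.63-fold lower (adjusted p = 2.1e-04). C4b was 2.14-fold lower (adjusted p = 7.9e-07) and Cp 1.65-fold lower (adjusted p = 1.7e-08), while C2 was 1.36-fold higher (adjusted p = 0.0042). By this test 7 of the 8 genes were called, 2 higher and 5 lower, against 36.2% of all genes (18.2% higher and 18% lower). Cfb had means of 5.04 (large) and 4.87 (small) (difference 0.17, 95% interval 0.019 to 0.32, adjusted p = 0.074), and was called without untreated small replicate 3 (adjusted p = 0.032). The median difference of the 8 genes was -0.71, beside 0.031 for all genes.

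PDGF-AB was compared with no treatment in small colonies at passage 5 to measure how these genes respond to it. Ceruloplasmin rose while C4 and C1s fell. Cp rose 2.25-fold, by 1.17 (SE 0.055, adjusted p = 1.2e-10), with all 3 treated arrays above all 3 untreated ones. C4b fell by 0.96 (SE 0.12, adjusted p = 9.9e-06) and C1s1 fell by 0.58 (SE 0.070, adjusted p = 1.1e-05). Masp1 fell 1.16-fold (adjusted p = 0.0035), and Serping1 rose 1.37-fold (adjusted p = 0.0032) between levels near background. In all 5 of the 8 genes were called, 2 higher and 3 lower, against 28.9% of all genes (10.7% higher and 18.2% lower), and the median of the 8 was -0.18 beside 0.016. C1ra was not called (difference -0.24, 95% interval -0.50 to 0.022, adjusted p = 0.16), nor was C2 (0.019, interval -0.22 to 0.26, adjusted p = 0.92). Cfb had a difference of -0.14 (adjusted p = 0.15) and was called lower after quantile normalization (adjusted p = 0.039). The untreated small arrays also serve the comparison of colony types, so these differences are not independent of those above.

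**Figure D2:**
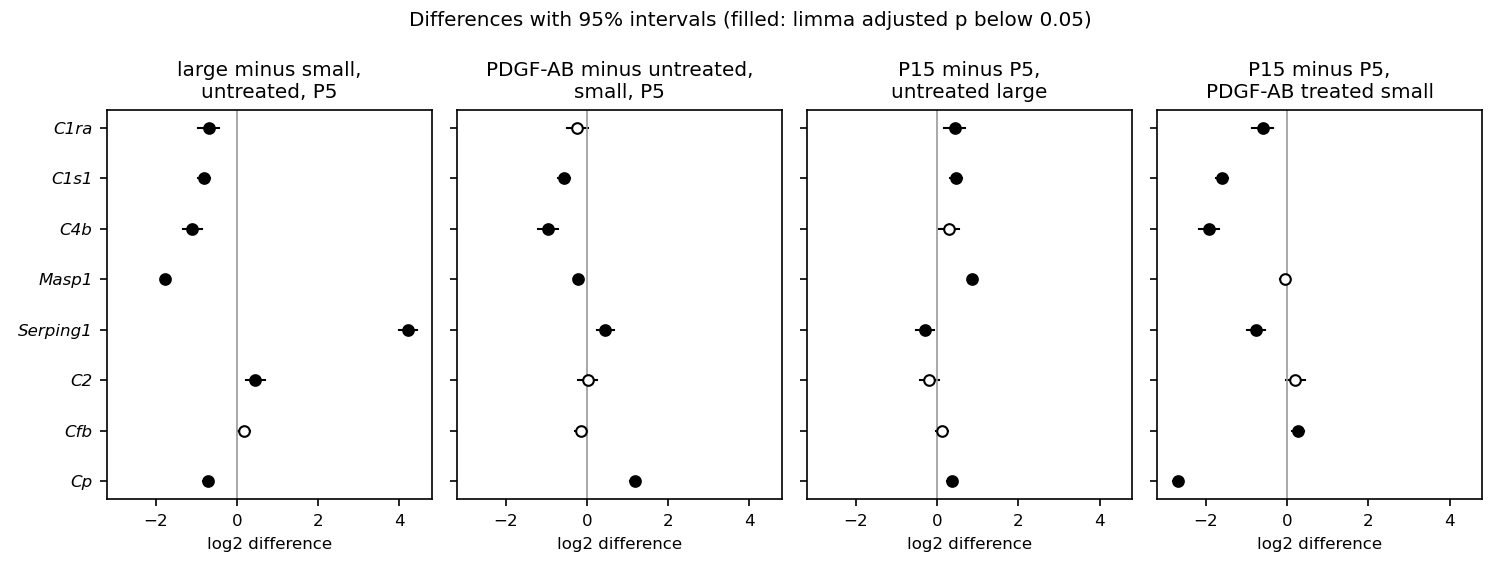
Log2 differences of the 8 genes (horizontal axis) with their 95% intervals from limma, in 4 comparisons (panels); filled points had an adjusted p below 0.05. Serping1 stands at 4.21 in the panel of colony types, Cp at 1.17 with PDGF-AB and at -2.70 with passage in treated small colonies.

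Passage 15 was compared with passage 5 in untreated large colonies to ask what changed with time in culture. Masp1, both C1 proteases and ceruloplasmin rose by less than 2-fold. Masp1 rose 1.82-fold (0.87, SE 0.051, adjusted p = 5.6e-10), C1s1 1.37-fold (adjusted p = 5.4e-05) and Cp 1.28-fold (adjusted p = 5.6e-05). C1ra rose 1.35-fold (adjusted p = 0.011), a call lost without large passage 5 replicate 3 (adjusted p = 0.067) or without large passage 15 replicate 1 (adjusted p = 0.066). In all 5 of 8 genes were called, 4 higher and 1 lower, against 36.1% of all genes (17.4% higher and 18.7% lower), with a median of 0.33 beside -0.042. C4b stood 0.30 higher (95% interval 0.052 to 0.54, adjusted p = 0.055). It was called when dim genes (mean below the median) were dropped (adjusted p = 0.029), with the compared groups alone (adjusted p = 0.010) and with trend and robust variance (adjusted p = 0.033).

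Serping1 was the gene called lower with passage in large colonies (difference -0.30, SE 0.10, adjusted p = 0.030), although its ranges overlapped. That call was lost with the compared groups alone (adjusted p = 0.052), without large passage 5 replicate 1 (adjusted p = 0.097) or 2 (adjusted p = 0.13), and without large passage 15 replicate 2 (adjusted p = 0.11) or 3 (adjusted p = 0.087). C2 (difference -0.19, adjusted p = 0.20) and Cfb (0.13, adjusted p = 0.19) did not pass.

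In treated small colonies the same passages gave falls. Cp fell by 2.70 (SE 0.055, adjusted p = 9.7e-16), 6.5-fold, the largest change among the 8 genes in this comparison. C4b fell by 1.93 (SE 0.12, adjusted p = 5.4e-10) and C1s1 fell by 1.60 (SE 0.070, adjusted p = 1.0e-11), and C1ra was 1.52-fold lower (adjusted p = 6.7e-04). Serping1 went from 4.98 to 4.22, 1.69-fold lower (adjusted p = 1.0e-05), again near background. Cfb rose 1.2-fold (adjusted p = 0.0056), a call lost after quantile normalization (adjusted p = 0.058). In all 6 of 8 genes were called, 1 higher and 5 lower, against 46% of all genes (24.6% higher and 21.4% lower), with a median of -0.68 beside 0.051. Masp1 was not called (difference -0.063, 95% interval -0.17 to 0.044, adjusted p = 0.33), nor was C2 (0.20, adjusted p = 0.15).

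The difference between the passage changes of the lines was tested directly, as treated small minus untreated large colonies. It was negative for both C1 proteases, C4b, Masp1, Serping1 and Cp. Cp had a difference of -3.06 (SE 0.078, adjusted p = 6.6e-14), C4b of -2.23 (SE 0.16, adjusted p = 2.0e-08), C1s1 of -2.06 (SE 0.099, adjusted p = 1.1e-10) and C1ra of -1.03 (SE 0.17, adjusted p = 2.3e-04). Masp1 had -0.93 (SE 0.071, adjusted p = 3.6e-08). Serping1 had -0.46 (SE 0.14, adjusted p = 0.022), with adjusted p of 0.056 to 0.061 without large passage 5 replicate 3, large passage 15 replicate 1, or replicate 2 of either treated group. In all 6 of 8 genes were called, all lower, against 34.4% of all genes (18.6% higher and 15.9% lower). C2 had 0.39 (95% interval 0.061 to 0.73, adjusted p = 0.063) and passed without large passage 5 replicate 1 (adjusted p = 0.045), large passage 15 replicate 3 (adjusted p = 0.040) or treated passage 5 replicate 3 (adjusted p = 0.025), and Cfb had 0.14 (adjusted p = 0.30). Colony size and PDGF-AB differ together between these lines and cannot be told apart.

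At passage 15 itself, treated small colonies were below untreated large ones in 6 genes and above in 1, against 53.4% of all genes called (29.2% higher and 24.2% lower). Serping1 was 18.7-fold lower (adjusted p = 3.8e-15), C4b 4.24-fold lower (adjusted p = 2.1e-10), C1s1 3.52-fold lower (adjusted p = 1.8e-12) and Cp 2.25-fold lower (adjusted p = 2.4e-11), while Masp1 was 1.54-fold higher (adjusted p = 3.1e-08). C1ra was 1.48-fold lower (adjusted p = 0.0011). The fold of Serping1 rests on a background-level value in small colonies. Cfb was lower by 0.17 with an adjusted p of 0.0496, and this call was lost under 8 alternatives. They were centring the arrays (adjusted p = 0.078), trend and robust variance, the replicate block, and leaving out any 1 of the large arrays (adjusted p = 0.069 to 0.14) or treated replicate 2 (adjusted p = 0.086) or 3 (adjusted p = 0.17). At passage 5 the order was the reverse for several genes, with 7 of 8 called, 4 higher and 3 lower, against 35.7% of all genes (14.8% higher and 20.9% lower). Treated small colonies were then 3.7-fold higher in Cp (adjusted p = 8.2e-14), 2.94-fold higher in Masp1 (adjusted p = 3.2e-13), 1.38-fold higher in C1ra (adjusted p = 0.0063) and 1.18-fold higher in C1s1 (adjusted p = 0.012), and lower in Serping1, C2 and Cfb. C4b did not pass there (difference 0.14, 95% interval -0.10 to 0.39, adjusted p = 0.39).

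The other complement genes were taken from 4 lists of 45 genes, of which 42 were tested. The rest were not analysed here. With passage in treated small colonies 17 of the 42 were called, 7 higher and 10 lower, with a median of 0.031. That is 40.5%, below the 46% of all genes called there. Among neighbours and copies of the genes above, C1s2, a close copy of C1s1 in the same gene run, fell by 1.23 (adjusted p = 4.7e-06). It ended close to the lower quartiles of the arrays, so the size of its fall depends on background. C1rl fell by 0.67 (adjusted p = 1.5e-06), and C4a, the copy of C4b, fell by 0.29 (adjusted p = 0.0087). Cfb and C2, which lie in the run of C4b, did not fall. Cfb rose by 0.27 (adjusted p = 0.0056, limma) and C2 was not called (0.20, adjusted p = 0.15). Probes of such copies can pick up each other's RNA, so C1s1 and C1s2, C4b and C4a, and C1ra and C1rb are not fully separate measurements. C4bp, the binding protein that helps inactivate C4b, fell by 2.08 (adjusted p = 2.1e-14). The scavenger receptor Colec12 fell by 0.87 (adjusted p = 2.4e-10), and Cfp, which encodes the alternative pathway stabiliser properdin, fell by 0.60 (adjusted p = 5.8e-06). C3ar1, the receptor of the C3a fragment, rose by 2.93, from 5.53 to 8.46 (adjusted p = 1.0e-14), and the inhibitor Susd4 rose by 0.75 (adjusted p = 2.7e-05).

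With passage in untreated large colonies 10 of the 42 other complement genes were called, 5 higher and 5 lower, or 23.8% beside 36.1% of all genes. Clu, which encodes clusterin, an inhibitor of the membrane attack complex, rose by 1.59 (adjusted p = 4.3e-11), and C3ar1 rose by 1.71 (adjusted p = 1.1e-11). C4bp fell by 1.31 (adjusted p = 8.9e-12). The difference between the lines was negative for Clu (-2.25, adjusted p = 1.1e-10), C1s2 (-1.61, adjusted p = 2.5e-05), C1rl (-0.66, adjusted p = 1.7e-04) and C4bp (-0.77, adjusted p = 1.1e-06), and positive for C3ar1 (1.22, adjusted p = 1.3e-07).

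With PDGF-AB at passage 5, 13 of the 42 were called, 3 higher and 10 lower, or 31.0%, near the 28.9% of all genes. Cd55, which speeds the decay of C3 convertases on the cell surface, went from 6.91 to 3.90, a fall of 3.00 (adjusted p = 9.4e-11). The treated mean of Cd55 lay below the lower quartile of every array, so the size of this fall depends on background. Clu fell by 0.95 (adjusted p = 9.2e-08), C4bp fell by 0.52 (adjusted p = 2.5e-06), C1s2 fell by 0.50 (adjusted p = 0.024), and C4a fell by 0.40 (adjusted p = 0.0014). The 3 that rose, all dim, were Cfp (0.35, adjusted p = 0.0026, limma), Cd46 (0.26, adjusted p = 0.031) and C5ar1 (0.24, adjusted p = 0.037). Between untreated colony types 13 were called too, 3 higher and 10 lower in large colonies, beside 36.2% of all genes. Cd59a, a surface inhibitor of the membrane attack complex, had means of 6.66 (large) and 3.07 (small) (adjusted p = 5.3e-12). It and Serping1 were thus both high in large and near background in small colonies. The C1q genes C1qa, C1qb and C1qc had means of 4.42 to 5.30 in all groups, and the terminal components Hc, C6, C7, C8a, C8b and C9 had means of 2.91 to 4.98. C8g, of the same list, had means of 5.07 to 5.71 and was lower with PDGF-AB (-0.48, adjusted p = 0.0022) and in large colonies (-0.42, adjusted p = 0.0043).

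**Figure D3:**
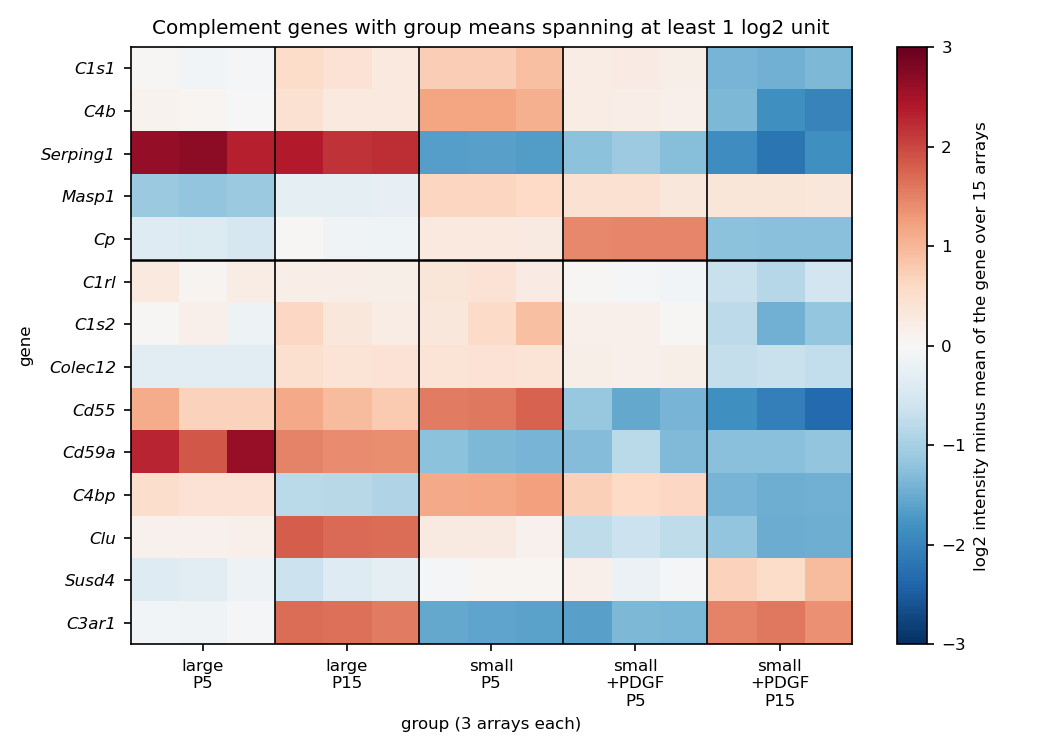
Level of each complement gene and of Cp on each array, as log2 intensity minus the mean of the gene over 15 arrays (colour), for the genes (rows) whose group means spanned at least 1; the arrays (columns) are ordered by group. The 5 rows above the thick line are the genes of the list and the 9 below are other complement genes. C1s1, C4b, C1s2, C1rl, Colec12 and C4bp share their low values in treated small colonies at passage 15, and C3ar1 is high at passage 15 in both lines.

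Genes of the acute phase and of the cytokines that induce it were set beside these. With passage in treated small colonies 4 of 14 measured acute phase genes were called, all lower, or 28.6% beside 46% of all genes. Serpina3n, a serpin of the acute phase, fell by 3.61 (adjusted p = 2.9e-15), Saa3 fell by 1.23 (adjusted p = 3.0e-09), Lcn2 fell by 0.62 (adjusted p = 1.8e-05) and Hp, the gene of haptoglobin, fell by 0.48 (adjusted p = 0.025). Of 20 inflammatory signal genes 4 rose and 9 fell, including the cytokine Il6 (-4.34, adjusted p = 6.5e-16), Osmr, a receptor of oncostatin M (-1.21, adjusted p = 5.8e-12), Lif (-1.66) and the STAT3 target Socs3 (-1.14, adjusted p = 3.6e-09). Il6 and Saa3 ended close to the lower quartiles of the arrays, so the sizes of their falls depend on background. In large colonies Lcn2 (1.75, adjusted p = 7.5e-11), Hp (1.57, adjusted p = 7.8e-07), Serpina3n (0.48, adjusted p = 1.5e-04) and Socs3 (1.27, adjusted p = 1.3e-09) rose with passage, while Il6 fell by 1.44 (adjusted p = 7.0e-10). Of the 14 acute phase genes 4 rose there and 2 fell, Saa3 by 0.64 (adjusted p = 1.0e-05) and Hpx, the gene of hemopexin, by 0.21 (adjusted p = 0.013). That is 42.9% called, beside 36.1% of all genes.

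With PDGF-AB at passage 5 4 of 14 acute phase genes (28.6%) were called, a share near the 28.9% of all genes, and all 4 were lower. Serpina3n (-0.99, adjusted p = 1.4e-07), Lcn2 (-1.04, adjusted p = 1.6e-07), Hp (-0.76, adjusted p = 0.0021) and Saa3 (-0.49, adjusted p = 3.3e-04) fell, as C4b and C1s1 did, while Il6 rose by 1.51 (adjusted p = 1.3e-09) and Cp rose. Of 17 interferon response genes 14 fell and 1 rose, for example Oasl2 (-2.61, adjusted p = 1.6e-13) and Ifit1 (-2.65, adjusted p = 3.6e-12). Factor B and C2 are known interferon-induced genes, and neither was called there. Both already lay near background without treatment (means 4.87 for Cfb and 4.71 for C2), which limits what a fall could show. A link of the complement changes to interferon was not tested. Among 14 iron and copper genes 1 rose and 5 fell, and Slc40a1, the iron exporter ferroportin that works with ceruloplasmin, fell by 0.46 (adjusted p = 0.0015). Its means there were dim, 5.79 without and 5.32 with PDGF-AB. With passage in large colonies Slc40a1 rose by 0.83 (adjusted p = 2.6e-06) and Cp rose too, whereas with PDGF-AB Slc40a1 fell while Cp rose.

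Markers of other cells were measured beside the falls in treated small colonies. Of 10 macrophage and leukocyte markers 3 rose and 2 fell with passage there, or 50% called, near the 46% of all genes. The summed intensity of these markers was 835 to 870 on the passage 5 arrays and 391 to 415 on the passage 15 arrays. With Lyz2 left out it was 353 to 368 and 356 to 371. Lyz2, which encodes lysozyme, fell by 3.58 (adjusted p = 8.3e-15), while the defining markers Ptprc and Adgre1 had means of 3.34 to 4.12 in these groups, at or below the lower quartiles. No marker is at 0 on this scale. Of the 4 hepatocyte markers measured none was called with passage in treated small colonies (limma), and Alb had means of 3.16 to 3.24 in all groups. All 5 proliferation markers rose with passage in both lines, with a median of 4.19 in treated small and 3.66 in large colonies. Of all genes 46% and 36.1% were called there. All 5 proliferation markers fell with PDGF-AB (median -1.52) and were lower in large than in small untreated colonies (median -1.60). Of all genes 28.9% and 36.2% were called there. Of the 7 stromal markers 5 fell with PDGF-AB (median -0.33), or 71.4% beside 28.9% of all genes. The part of any of these in the complement changes was not tested.

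The genes whose pattern over the 15 arrays was most like each gene were listed by Pearson's r among 2566 named genes whose group means spanned at least 1. Arrays of a group share most of their level, so r mostly reflects the 5 group means, and it is given as a description. For C4b they were Grb14 (0.992), Idi1 (0.982) and C1s1 (0.979), and for C1s1 they were Jazf1 (0.987), Serpina3n (0.985) and Grb14 (0.983). For Serping1 they were Nrp1 (0.996), Smoc1 (0.995) and Id4 (0.994), and for Masp1 they were Postn (0.991), Qsox1 (0.986) and Pknox2 (0.979). Cp was most like Fos (0.982), Shc4 (0.975) and E2f6 (0.974). C1ra was most like BC028528 (0.932), Gemin8 (0.906) and Bhlhe40 (0.875). The dim genes had looser matches, Cfb with Pde4b (0.894), Pde3b (0.888) and Gsdme (0.883), and C2 with Best3 (0.802), Rgs20 (0.802) and Fhod3 (0.789). Among the 8 genes themselves C1s1 and C4b stood closest, C1ra had r of 0.815 with C1s1 and 0.798 with C4b, and Masp1 and Serping1 ran opposite (-0.901).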

How the data were processed

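RNA from 15 samples was measured on 1 Affymetrix whole-transcript array each, per the labels' protocols. The deposited values are log2 intensities of 28853 probe sets, and RMA and limma are listed, without version, in the submitters' processing notes. Background settings were not given in the sources used here. Of the probe sets 21789 named 1 gene, 1621 several, and 5443 were not listed. The probe set with the highest mean was used for each of 19938 genes, with symbols updated by gene identifier to GRCm38.p6 RefSeq (21698 matched, 91 not).

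A linear model of 5 group means was fitted to all 15 arrays with limma 3.58.1 in R 4.3.3 (10 residual degrees of freedom). Moderated 2-sided tests were adjusted by Benjamini-Hochberg over all genes in each of 7 comparisons, at 0.05. Errors of levels are SDs over 3 arrays, and those of differences SEs of the fit. The number of arrays limits the precision. The pipeline was tested on simulated data. The genes and lists were chosen with earlier results of these data known. Beyond the 8 genes, up to 4 called genes with the smallest adjusted p were named from each list and comparison, plus the paralogs C1s2 and C4a, the cell type checks and the genes most alike. Slc40a1, Cd59a, Thy1, Hpx, C1q and terminal complement genes, and genes named again in a further comparison, were chosen with their values seen. Alternatives were median centring, quantile normalization, a filter on dim genes, the mean over probe sets, the compared groups alone, trend and robust variance, a replicate block, and leaving out each array.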

Additional observations from a re-analysis of the deposited data

Results flagged for a closer look

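The passage change differed between treated small and untreated large colonies, by a test of the difference itself (limma, adjusted over all genes), in 6 of the 8 genes. All 6 were called lower, against 34.4% of all genes called (18.6% higher and 15.9% lower). The differences were -1.03 for C1ra, -2.06 for C1s1, -2.23 for C4b, -3.06 for Cp, -0.93 for Masp1 and -0.46 for Serping1. For C1ra, C1s1 and Cp the changes were called in opposite directions in the 2 lines, and Cp changed by -2.70 in treated small and 0.36 in large colonies. The rise of C1ra in large colonies lost its call without large passage 5 replicate 3 (adjusted p = 0.067, limma) or large passage 15 replicate 1 (adjusted p = 0.066). For Serping1 the difference was no longer called when any 1 of 4 arrays was left out (adjusted p = 0.056 to 0.061, limma). Its change in treated small colonies lies near background, and its fall in large colonies lost its call under 5 alternatives (adjusted p = 0.052 to 0.13). Groups of 3 arrays are too small for a test of single arrays that stand apart.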

How the results depend on the processing

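Over the 7 comparisons and all alternatives run, a gene kept its call in 732 of 762 refits, lost it in 20, gained it in 10 and was reversed in 0. A kept call includes a gene that was not called in either fit. Each of the 8 genes had 1 probe set, so the mean over probe sets left its values unchanged and could hardly move a call. The number of the 8 genes called stayed within 1.5 times its value in all refits. Over all genes, the number called at passage 15 between treated small and large colonies was 10637, and 6829 of the 9969 tested when dim genes were left out, where fewer genes were tested. With each array left out in turn it ranged from 5 to 5 for PDGF-AB, 7 to 8 for colony types, 4 to 4 for passage in large colonies, 6 to 6 for passage in treated small colonies and 6 to 7 for treated small against large colonies at passage 15, 7 to 7 at passage 5, and 5 to 7 for the difference of passage changes. With the replicate block it was 5, 7, 6, 6, 6, 7 and 7 in that order. The block added C4b with passage in large colonies (adjusted p = 0.021) and C2 in the difference of passage changes (adjusted p = 0.047), and removed Cfb at passage 15 (adjusted p = 0.060). Replicate numbers were not used as pairs in the main fit. For passage in large colonies same-numbered arrays had deviations from their group means that correlated at 0.208, 0.098 and 0.202, and for 6 of 6 arrays the best match shared the number. For passage in treated small colonies it did so for 0 of 6. Whether same-numbered large-colony arrays share a culture is not in the labels. Leaving out genes below the median level removed C2 and Cfb from the test. Signal close to background limits C2 and Cfb in all groups and Serping1 in small colonies. C4b was dim in treated small colonies at passage 15 (mean 5.41, SD 0.34), which may limit the size of its differences there.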
